A study of Bos taurus with 6 samples.

Results

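The kinesin motor family was described in cultured rumen epithelial primary cells (REPC) with and without butyrate. Members were all genes whose deposited name is KIF followed by a number and, for some, a letter from A to C, or KIFC followed by a digit. This gave 39 genes on 39 of the 32183 rows of each expression table, of which 13 are mitotic motors, 16 are transport motors and 10 have other or mixed roles. All 6 cultures came from 1 Holstein bull calf of 2 weeks of age that had received milk replacer only. The 3 butyrate cultures were exposed to 5 mM butyrate for 24 h and the 3 control cultures carry the label control, with no vehicle named. The question was how the RNA levels of dividing-cell motors and of cargo motors differed between the groups. Since every culture derives from the same animal, the p-values below measure the spread between cultures and not between calves.

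Kinesins are ATP-driven motor proteins that move along microtubules or take them apart. Mitotic kinesins build the spindle, move and align chromosomes and complete cytokinesis, and their transcripts accumulate in cycling cells before division. Transport kinesins carry vesicles, organelles and protein complexes, mostly toward microtubule plus ends at the cell periphery, and several of them are best known from neurons, where axons make long-distance transport necessary. Butyrate, a short-chain fatty acid made by rumen microbes, is a histone deacetylase inhibitor known to arrest the growth of cultured cells.

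Levels are FPKM, fragments scaled by transcript length and by the mapped fragments of the library, so levels of genes of different length can be compared. Changes are log2 fold changes of butyrate over control on the log2(FPKM + 0.1) scale, a scale that shrinks the changes of weakly expressed genes, with their standard error (SE). A gene is said to have risen or fallen where the Benjamini-Hochberg (BH) adjusted p from limma over the 15813 genes tested was under 0.05, and is called a DEG where the Bonferroni-adjusted p was under 0.05 and the log2 fold change was beyond 2. Of the 39 kinesins, 36 reached a mean of 0.1 FPKM over the 6 cultures and were tested. KIF2B was listed at 0 in every culture, and KIF25 and KIF26B stayed at or below 0.118.

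Expression profiles correlated at r = 0.973 to 0.977 within groups and 0.902 to 0.912 between groups over the genes tested. The summed FPKM of all genes ranged from 678035 to 681912 in the control cultures and from 619401 to 629037 in the butyrate cultures, and the median change of all genes tested was 0.10. Read counts were not used here, so precision is given by the bounds deposited with each FPKM, whose median half-width was 10.6% to 11.2% of the value for genes above 5 FPKM. Among the epithelial markers, the keratins KRT8, KRT19 and KRT5 were abundant, whereas KRT4 and EPCAM were low. The fibroblast and mesenchymal markers COL1A1, VIM and ACTA2 were also abundant, with a summed level of all 10 markers of 7011 to 7314 in control and 7212 to 7814 in butyrate cultures, against 2428 to 2542 and 5051 to 5134 for the 11 epithelial markers. Of the 11 epithelial markers, 6 rose and 2 fell, and of the 9 fibroblast markers tested 8 rose and 1 fell, where 32.5% of all genes tested rose and 25.9% fell. The immune marker PTPRC was at 0 in every culture and 1 of the 2 immune markers tested rose. In such bulk RNA, fewer cells of a type and less RNA per cell cannot be told apart, and the part of cell composition in the results below was not tested.

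By class, the mitotic kinesins fell, whereas the transport and other kinesins held both rises and falls. All 12 mitotic kinesins tested fell, and 11 of them were DEGs. Among all genes tested 1.51% were lower DEGs and 25.9% fell. Of the 16 transport kinesins, 7 rose, 2 fell (1 without control culture 1) and 7 did not pass the test, against 32.5% of all genes that rose. The transport share that rose was thus not far from that of all genes. KIF1A and KIF5C were the 2 higher DEGs of the family, a class that held 2.46% of all genes tested. Among the kinesins that rose, KIF1A, KIF5C, KIF5A, KIF19 and KIF26A averaged under 0.1 FPKM in control cultures. They passed the filter only through their butyrate values, so the counts of rises are partly set by the filter. Of the 8 other kinesins tested, 3 rose, 1 fell and 4 did not pass. Median changes were -3.94 for mitotic, 0.53 for transport and 0.47 for other kinesins. Under quantile normalization the transport median was 0.24 and that of the other kinesins turned to -0.01, and with a pseudocount of 1 they were 0.31 and 0.14. The 36 kinesins together had a median change of 0.11, close to that of all genes, although the mitotic class was far lower. With cultures left out, lower DEGs numbered 5 without control culture 1, 2 or 3 and 8, 7 and 6 without butyrate culture 1, 2 and 3, and higher DEGs numbered 1 without control culture 1 or 2 and 0 without any butyrate culture, whereas all 12 mitotic kinesins fell each time. The butyrate values lay below all control values for 16 kinesins and above them for 14, compared with 28.9% and 36.1% of all genes tested.

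**Figure D1:**
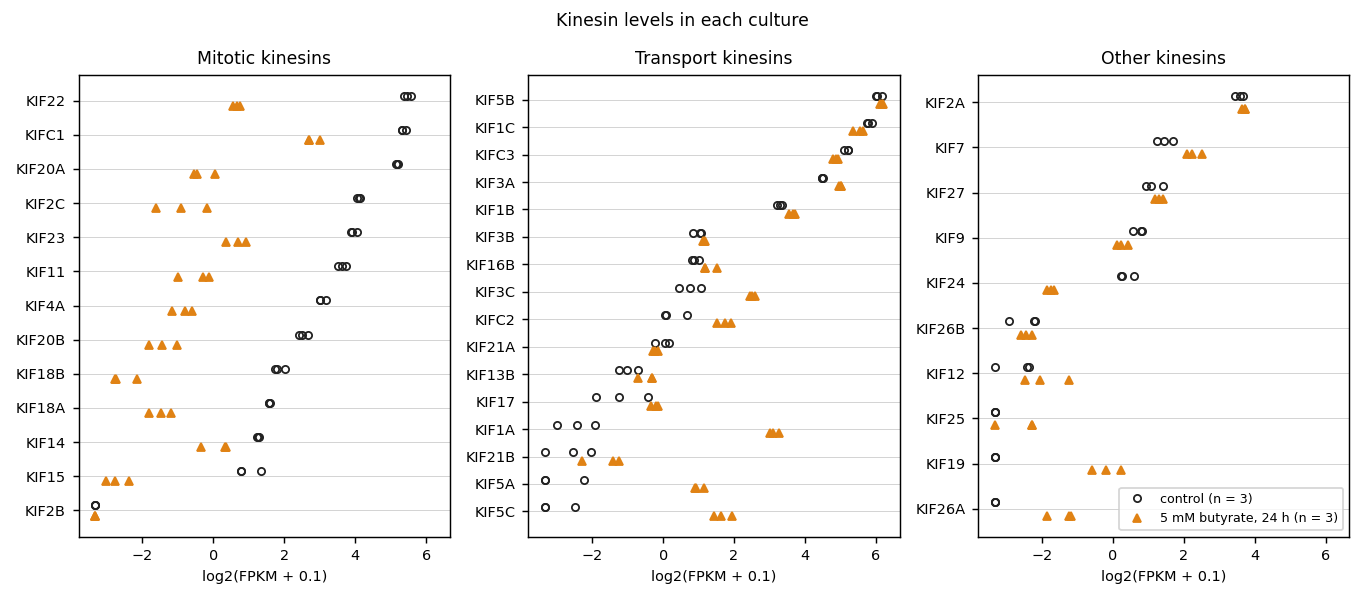
FPKM of the kinesins in each control and butyrate culture, on the log2(FPKM + 0.1) scale, in 3 panels for mitotic, transport and other kinesins, with 1 point per culture. In all 12 mitotic kinesins tested the butyrate points lie below the control points, whereas KIF1A, KIF5C, KIF5A and KIF3C among the transport kinesins lie higher after butyrate.

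Motors that separate or focus spindle poles fell. KIF11 (Eg5), the tetrameric motor that slides antiparallel microtubules to make the spindle bipolar, had FPKM of 13.2, 12.3 and 11.2 in control cultures 1 to 3 and 0.816, 0.403 and 0.709 in butyrate cultures 1 to 3. All butyrate values were far below the controls, and the log2 fold change was -4.10 (SE 0.23, limma BH adjusted p = 1.49e-06). KIF15, which can share the work of KIF11 in holding the spindle open, had control values of 2.41, 1.63 and 1.60 and butyrate values of 0.0943, 0.0228 and 0.0464. Its groups did not overlap and the change was -3.68 (SE 0.33, limma BH adjusted p = 2.19e-05), but its butyrate values rest on few fragments, with bounds 102% to 214% of the value in half-width. KIFC1 (HSET), a minus-end motor that focuses spindle poles and clusters extra centrosomes, retained more of its control level than KIF11 and KIF15. Its control values were 39.8, 42.8 and 39.4 and its butyrate values 6.4, 6.35 and 7.92. KIFC1 kept 16.9% of the control mean (40.7 ± 1.83 against 6.89 ± 0.893, mean ± SD, n = 3), a change of -2.55 (SE 0.10, limma BH adjusted p = 2.21e-07), and was the most abundant mitotic kinesin left after butyrate.

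Motors that move chromosomes or shorten microtubule ends fell as well. KIF22 (Kid), a chromokinesin that pushes chromosome arms away from the poles, had the highest mean of the mitotic kinesins in control cultures, with values that overlapped those of KIFC1, at 44.1, 41.0 and 47.4 FPKM, and stood at 1.5, 1.36 and 1.59 in the butyrate cultures. This was 29.8-fold lower by the group means, with a log2 fold change of -4.81 (SE 0.11, limma BH adjusted p = 3.19e-08). KIF4A, the chromokinesin that also acts in the anaphase midzone, had 8.91, 7.91 and 8.0 FPKM in control and 0.473, 0.345 and 0.555 in butyrate cultures. It fell by 3.93 on the log2 scale (SE 0.20, limma BH adjusted p = 8.03e-07). KIF2C (MCAK), which depolymerises microtubules at the kinetochore and corrects wrong attachments, went from 17.4, 17.0 and 16.3 to 0.228, 0.429 and 0.781 FPKM. Butyrate culture 1 was the lowest and culture 3 the highest for KIF2C, all well under the controls, and the change was -4.99 (SE 0.32, limma BH adjusted p = 2.68e-06).

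The kinesin-8 motors KIF18A and KIF18B, which damp the growth of kinetochore and astral microtubules, had low control levels and fell to different extents. KIF18A had 2.85, 2.94 and 2.88 FPKM in control cultures and 0.340, 0.182 and 0.259 in butyrate cultures, a change of -3.08 (SE 0.25, limma BH adjusted p = 1.17e-05). KIF18B had 3.25, 3.35 and 3.92 FPKM in control cultures and 0.0465, 0.123 and 0.0505 in butyrate cultures, a change of -4.40 (SE 0.28, limma BH adjusted p = 2.81e-06). The fall of KIF18B was the larger by 1.32 on the log2 scale (SE 0.32, 95% interval 0.59 to 2.06, limma BH adjusted p = 0.00395 over 16 pairs of related kinesins). This difference passed in every alternative run but its size depended on the pseudocount, at 0.44 with a pseudocount of 1 and 2.04 with 0.01, and the bounds of the KIF18B butyrate values were 125% to 215% of the value in half-width. KIF18B overlaps the listed gene LOC104975097, and no strand-specific counting is stated.

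Kinesins of the midzone and of cytokinesis held both the largest and the smallest fall of the mitotic class. KIF20A (MKLP2), which brings the chromosomal passenger complex to the midzone, lies on chromosome 7 (51214236 to 51222635) and overlaps CDC23 in the annotation. Its control values were 36.3, 35.3 and 37.0 FPKM and its butyrate values 0.626, 0.591 and 0.938. The mean fell 50.4-fold, from 36.2 ± 0.855 to 0.718 ± 0.191 (SD, n = 3), and the log2 fold change of -5.50 (SE 0.17, limma BH adjusted p = 7.53e-08) was the largest fall of the family. Its relative KIF20B (MPP1), a motor of late cytokinesis, had 6.21, 5.58 and 5.26 FPKM in control and 0.394, 0.182 and 0.268 in butyrate cultures. KIF20B fell by 3.96 (SE 0.25, limma BH adjusted p = 2.7e-06). The change of KIF20A minus that of KIF20B was -1.54 (95% interval -2.15 to -0.93, limma BH adjusted p = 0.000635 over the pairs).

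KIF23 (MKLP1), the motor subunit of centralspindlin, had 14.5, 14.8 and 16.4 FPKM in control and 1.79, 1.18 and 1.53 in butyrate cultures. The groups stood far apart, with a change of -3.28 (SE 0.16, limma BH adjusted p = 7.36e-07). KIF14, which recruits citron kinase to the midbody, was the only mitotic kinesin tested that was not a DEG. Its control values were 2.28, 2.35 and 2.24 and its butyrate values 1.18, 0.691 and 1.16, so that 44.1% of the control mean remained. KIF14 fell by 1.14 on the log2 scale (SE 0.24, limma BH adjusted p = 0.0032). The 12 mitotic kinesins fell under every setting that tested them.

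Butyrate culture 2 had the lowest value for KIF11, KIF15, KIF20A, KIF20B, KIF4A, KIF18A, KIF23, KIF22, KIFC1 and KIF14, whereas KIF2C and KIF18B were lowest in culture 1. The widths of the deposited bounds moved with the level, for KIF20A from 7.37% to 7.64% of the value in control to 40.0% to 48.4% in butyrate cultures.

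Proteins that work with the mitotic motors were listed separately. Of 10 such partners, 9 fell, 8 of them as DEGs, with a median change of -3.10, and NUMA1, a spindle pole protein, did not pass the test (-0.10, limma BH adjusted p = 0.426). Among all genes tested 25.9% fell and 1.51% were lower DEGs. CENPE, itself a kinesin-7 motor of the kinetochore that carries another name, had 6.09, 4.97 and 4.54 FPKM in control and 0.306, 0.222 and 0.328 in butyrate cultures. It fell by 3.78 (SE 0.22, limma BH adjusted p = 1.83e-06), within the range of the mitotic kinesins. RACGAP1, the partner of KIF23 in centralspindlin, fell by 2.10 (SE 0.10, limma BH adjusted p = 4.86e-07), and TPX2, which targets KIF11 to the spindle, by 3.12 (SE 0.10, limma BH adjusted p = 9.41e-08). PRC1, which bundles midzone microtubules and binds KIF4A, fell by 2.76 (SE 0.09, limma BH adjusted p = 8.55e-08). CKAP5, a microtubule polymerase used throughout the cell cycle, fell by 0.37 (SE 0.10, limma BH adjusted p = 0.0141), a call lost after TPM rescaling (-0.25, limma BH adjusted p = 0.0671). The 5 proliferation markers MKI67, TOP2A, PCNA, CCNB1 and CDK1 all fell as DEGs, with a median of -4.26, and their summed level was 189.9 to 195.7 FPKM in control and 11.2 to 13.3 in butyrate cultures. Whether fewer dividing cells account for the mitotic kinesins was not tested.

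**Figure D2:**
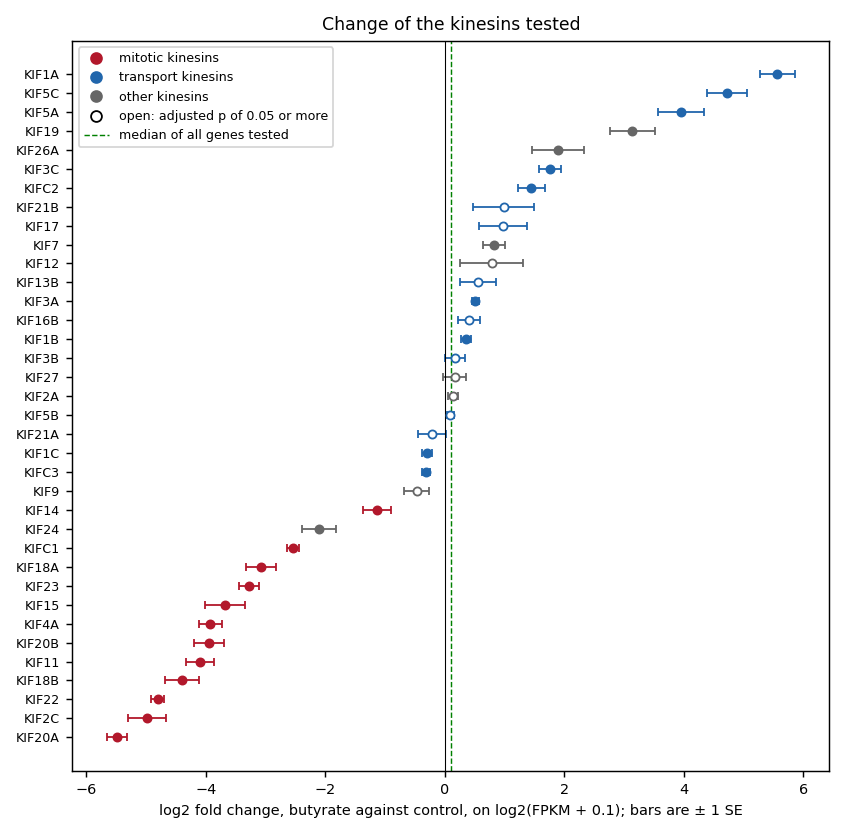
Log2 fold change of butyrate over control for each kinesin tested, on the log2(FPKM + 0.1) scale, ordered by size and coloured by class, with bars of 1 SE to either side from limma, open points for genes that did not pass the test and a dashed line at the median of all genes tested. Mitotic kinesins range from -5.50 to -1.14, and the largest rise is that of KIF1A at 5.56.

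Among the kinesin-1 heavy chains, the neuronal isoforms rose while the widely expressed isoform did not pass the test. KIF5A, KIF5B and KIF5C are the heavy chains of kinesin-1, of which KIF5B is used by most cells and KIF5A and KIF5C mainly by neurons. KIF5B was the most abundant kinesin of both groups, with 72.5, 65.0 and 63.7 FPKM in control and 72.8, 72.3 and 68.8 in butyrate cultures. Its groups overlapped, with a change of 0.09 (SE 0.06, 95% interval -0.05 to 0.23, limma BH adjusted p = 0.245), although it passed the test after TPM rescaling (0.21) and quantile normalization (0.20). KIF5C, on chromosome 2 (47311870 to 47472004), was listed at 0 in 2 control cultures and at 0.0779 in the third, and had 2.61, 3.77 and 3.02 FPKM in butyrate cultures. KIF5A, on chromosome 5 (56231774 to 56258788), was at 0, 0 and 0.112 FPKM in control and at 1.80, 2.10 and 1.76 in butyrate cultures. Neither gene's groups overlapped, and both were near the detection limit in control cultures. KIF5C rose by 4.72 (SE 0.34, limma BH adjusted p = 5.7e-06) and KIF5A by 3.95 (SE 0.38, limma BH adjusted p = 3.39e-05), sizes that depend on the pseudocount and ranged from 2.0 to 7.24 and from 1.48 to 6.36 over the settings tried. KIF5A and KIF5C together made up 5.71%, 7.51% and 6.51% of the kinesin-1 heavy chain FPKM in the butyrate cultures, against 0%, 0% and 0.297% in the controls.

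KIF1A showed the largest rise of the family. KIF1A, a fast motor of synaptic vesicle precursors and dense-core vesicles, lies on chromosome 3 (120499855 to 120608703). Its FPKM was 0.0264, 0.0854 and 0.165 in control and 9.46, 8.04 and 8.37 in butyrate cultures, far apart without overlap. By FPKM it moved from the 30th place among the kinesins to the 7th, with a change of 5.56 (SE 0.29, limma BH adjusted p = 1.03e-06). Across the settings the change ranged from 3.14 to 6.67, and the bounds of the control values were 120% to 397% of the value in half-width. Its relative KIF1B, which carries mitochondria and synaptic vesicle precursors, had 10.2, 9.22 and 9.69 FPKM in control and 13.1, 12.5 and 11.7 in butyrate cultures, a rise of 0.35 (SE 0.09, limma BH adjusted p = 0.00828). KIF1C, a broadly expressed vesicle motor, had 59.3, 54.1 and 53.6 FPKM in control and 49.4, 40.4 and 46.6 in butyrate cultures. It fell by 0.29 (SE 0.08, limma BH adjusted p = 0.0148). This call was lost after TPM rescaling (limma BH adjusted p = 0.116), quantile normalization (limma BH adjusted p = 0.0617), without the variance trend (limma BH adjusted p = 0.0574) and without control culture 1 (limma BH adjusted p = 0.066). KIF1C nevertheless remained the second kinesin by level in both groups, and KIF1A made up 13.2%, 13.2% and 12.6% of the KIF1 FPKM in butyrate cultures against 0.0380%, 0.135% and 0.261% in controls.

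Kinesin-2 carries intraflagellar transport trains into cilia and vesicles in the cytoplasm, as a KIF3A heavy chain paired with KIF3B or KIF3C and joined to the accessory subunit KIFAP3. KIF3A had 22.8, 22.3 and 22.2 FPKM in control and 31.2, 32.2 and 32.1 in butyrate cultures, a rise of 0.50 (SE 0.06, limma BH adjusted p = 0.000105) with very little spread within groups. KIF3C, the partner known mainly from neurons, had 1.25, 1.98 and 1.58 FPKM in control and 5.55, 5.36 and 5.89 in butyrate cultures. It rose by 1.76 (SE 0.19, limma BH adjusted p = 5.64e-05), whereas KIF3B had 1.68, 1.97 and 2.0 FPKM against 2.11, 2.18 and 2.10 and a change of 0.17 that did not pass (limma BH adjusted p = 0.406). The change of KIF3C exceeded that of KIF3B by 1.59 (SE 0.19, limma BH adjusted p = 6.18e-05 over the pairs). KIF3C was 42.6%, 50.1% and 44.3% of the FPKM of KIF3B and KIF3C together in control and 72.4%, 71.1% and 73.7% in butyrate cultures. KIFAP3 had 33.8, 32.1 and 33.7 FPKM in control and 58.7, 66.8 and 64.0 in butyrate cultures, a rise of 0.92 (SE 0.06, limma BH adjusted p = 4.72e-06).

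Minus-end directed kinesins of the KIFC group moved in different directions. KIFC2, described in dendritic and axonal transport, had 1.51, 0.964 and 0.930 FPKM in control and 3.65, 2.75 and 3.23 in butyrate cultures, a rise of 1.45 (SE 0.23, limma BH adjusted p = 0.00069). KIFC3, which acts at adherens junctions and in apical transport in epithelia, had 36.7, 37.0 and 34.2 FPKM in control and 30.1, 27.4 and 29.1 in butyrate cultures. It fell by 0.32 (SE 0.07, limma BH adjusted p = 0.00308), and its groups did not overlap. Together with the fall of KIFC1, the mitotic share of the KIFC FPKM went from 51.1%, 53.0% and 52.9% to 15.9%, 17.4% and 19.7%.

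The other transport kinesins did not pass the test and most were low. KIF16B, a motor of early endosomes, and KIF13B, a vesicle motor, had changes of 0.40 and 0.55 (limma BH adjusted p = 0.0865 and 0.145). KIF16B passed after TPM rescaling (0.53, limma BH adjusted p = 0.0337), both passed without the variance trend (limma BH adjusted p = 0.0393 and 0.0482), and the change of KIF13B was -0.17 under quantile normalization, where it did not pass. KIF17, a homodimeric kinesin-2 of dendrites and cilia, had 0.321, 0.637 and 0.168 FPKM in control and 0.695, 0.770 and 0.806 in butyrate cultures, with a change of 0.97 (limma BH adjusted p = 0.063). Control culture 2 was the highest control for KIF17, and without it the change was 1.35 (limma BH adjusted p = 0.0139). Without control culture 3, the lowest, the change was 0.62 and did not pass. KIF17 passed with a pseudocount of 1 and after TPM rescaling, and its change was 0.28 under quantile normalization, where it did not pass. KIF21A and KIF21B, which restrain microtubule growth, had changes of -0.22 and 0.98 (limma BH adjusted p = 0.464 and 0.133), KIF21B staying at or below 0.324 FPKM in every culture. Under quantile normalization KIF21A was lower (-0.81, limma BH adjusted p = 0.0194).

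Some neuronal markers rose as well. The 5 of 8 neuronal markers that were tested all rose, namely RBFOX3, MAP2, SYN1, SNAP25 and TUBB3, by 3.20, 2.74, 1.61, 1.47 and 1.14. RBFOX3 averaged 0.0268 FPKM in control and 1.02 in butyrate cultures. It thus passed the filter only through its butyrate values, and this count is partly set by the filter. Among all genes tested 32.5% rose. The remaining markers NEFL, STMN2 and SYP, too low to be tested, were at 0 in every control culture and at most 0.175 FPKM after butyrate. The summed level of the list was 118.4 to 123.9 FPKM in control and 261.3 to 285.5 in butyrate cultures, nearly all of it the tubulin TUBB3. The part of these markers in the kinesin results was not tested.

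Among the kinesins with other roles, KIF7, KIF19 and KIF26A rose and KIF24 fell. KIF7, which organises the tip of the primary cilium and relays Hedgehog signals, had 2.26, 2.60 and 3.16 FPKM in control and 4.18, 4.6 and 5.63 in butyrate cultures, a rise of 0.82 (SE 0.18, limma BH adjusted p = 0.00385). KIF19, a depolymerase that limits the length of motile cilia, lies on chromosome 19 (57725558 to 57753657) and was listed at 0 in all 3 control cultures. Its butyrate values were 0.780, 1.08 and 0.561, and it rose (limma BH adjusted p = 0.000142), with no fold given against a group at 0. KIF26A, an atypical kinesin without motor activity, was also at 0 in all controls and at 0.320, 0.337 and 0.177 after butyrate (limma BH adjusted p = 0.00536). Under quantile normalization this call was lost (limma BH adjusted p = 0.0818). KIF24, a depolymerase that restrains cilium assembly at the mother centriole, had 1.07, 1.40 and 1.08 FPKM in control and 0.214, 0.200 and 0.175 in butyrate cultures. KIF24 fell by 2.11 (SE 0.28, limma BH adjusted p = 0.000219).

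KIF2A, a depolymerase of interphase and mitotic cells and the relative of KIF2C, had 12.6, 10.8 and 11.8 FPKM in control and 13.2, 13.1 and 12.4 in butyrate cultures. Its groups overlapped and the change of 0.14 did not pass the test (limma BH adjusted p = 0.222), although it did after TPM rescaling (0.26). KIF9, KIF27 and KIF12 had changes of -0.47, 0.16 and 0.78 that did not pass (limma BH adjusted p = 0.0775, 0.49 and 0.23). KIF9, a kinesin of motile cilia, did pass as lower under quantile normalization (-0.94, limma BH adjusted p = 0.00462) and without the variance trend (-0.47, limma BH adjusted p = 0.0188), and the changes of KIF27 and KIF12 turned to -0.15 and -0.17 under quantile normalization. Of the 8 motile cilia markers, 4 were tested and DNAI1 alone rose, from 0, 0 and 0.0475 FPKM to 1.55, 1.30 and 1.51. DNAI1 passed the filter only through its butyrate values. Among all genes tested 32.5% rose. FOXJ1, the master regulator of motile cilia, was at 0, 0.224 and 0.188 FPKM in control cultures and at 0 in every butyrate culture. RSPH1 had 0.324, 0.699 and 0 FPKM in control and 0.646, 1.28 and 1.35 in butyrate cultures and did not pass the test (limma BH adjusted p = 0.0523), and TEKT1 was at 0 in every control and at most 0.160 after butyrate. The summed level of that list was 0.579 to 1.11 FPKM in control and 2.71 to 3.32 in butyrate cultures, and its part in the KIF19 result was not tested.

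The composition of kinesin RNA per culture followed from these changes. Mitotic kinesins made up 45.5%, 46.5% and 47.6% of the summed kinesin FPKM in control cultures and 5.28%, 4.77% and 6.17% in butyrate cultures. The difference of the means was -41.1 percentage points, with an exact two-sided permutation p = 0.1, the smallest that 3 cultures against 3 can give. Transport kinesins made up 48.7% ± 1.08 in control and 85.7% ± 0.586 in butyrate cultures (SD, n = 3), also without overlap. In FPKM, the mitotic sum was 191.4, 187.0 and 191.7 against 13.9, 11.9 and 15.8. The transport sum was 208.9, 196.6 and 191.5 against 226.4, 213.6 and 217.8. The change of composition therefore lay mainly in the mitotic sum, and the sum over all kinesins was 420.6, 402.0 and 402.8 FPKM in control and 262.9, 248.5 and 256.2 in butyrate cultures. No scaling between cultures enters the shares.

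**Figure D3:**
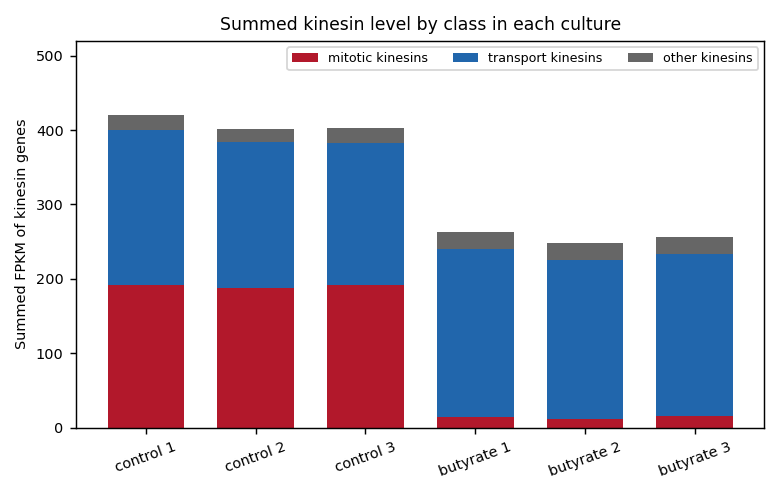
Summed FPKM of mitotic, transport and other kinesins in each of the 6 cultures, as stacked bars from 0. The mitotic part shrinks from 187.0 to 191.7 FPKM in control to between 11.9 and 15.8 in butyrate cultures, while the transport part lies between 191.5 and 226.4 FPKM in all cultures.

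The order of levels changed accordingly. In control cultures KIF5B and KIF1C led, followed by KIF22 and KIFC1, whose values overlapped, and then by KIF20A and KIFC3, whose values overlapped as well. In butyrate cultures KIF5B and KIF1C again led, followed by KIF3A, KIFC3, then KIF2A and KIF1B with overlapping values, and KIF1A, with KIFC1 as the highest mitotic member. Control cultures had 31 kinesins above 0 in every culture and butyrate cultures had 37. Over all genes, 16051 to 16193 were above 0 per control culture and 17306 to 17510 per butyrate culture, so more detected genes were not particular to kinesins.

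Related kinesins were compared directly, by the difference of their log2 values within each culture. In 15 of 16 pairs of tested members that share a family number, or the KIFC name, the changes differed (limma BH adjusted p under 0.05 over the pairs). Pairs of unrelated genes were not compared, and several pairs share a member, so this count is not shown to be particular to related kinesins. The 32.5% of all genes tested that rose and the 25.9% that fell are shares of single genes and not of pairs. By an exact two-sided permutation test p was 0.1 for each pair, the smallest that 3 cultures against 3 can give. The widest gap within kinesin-1 was between KIF5B and KIF5C, at -4.63 (SE 0.30, limma BH adjusted p = 1.44e-06). KIF5A and KIF5C, both near 0 in controls, differed by -0.78 (SE 0.18, limma BH adjusted p = 0.00383). Both were at 0 in control cultures 1 and 2, where the pseudocount set their difference to 0. The value therefore mostly shows that KIF5C stood above KIF5A after butyrate. KIF1A exceeded KIF1B by 5.21 (SE 0.29, limma BH adjusted p = 9.31e-07), and KIF2A exceeded KIF2C by 5.13 (SE 0.35, limma BH adjusted p = 2e-06). The pair that did not pass was KIF3A and KIF3B, whose changes differed by 0.33 with a 95% interval of -0.06 to 0.73 (limma BH adjusted p = 0.0886). That pair did pass with a pseudocount of 1 (0.37, limma BH adjusted p = 0.00312), under quantile normalization (0.73, limma BH adjusted p = 0.00371) and without control culture 1 (0.42, limma BH adjusted p = 0.015). The difference between KIF21A and KIF21B, of -1.20 (limma BH adjusted p = 0.00967), did not pass without control culture 1 (-0.97, limma BH adjusted p = 0.0546), without butyrate culture 2 (-1.0, limma BH adjusted p = 0.0502), with a smaller pseudocount or under quantile normalization. Close relatives share sequence, and reads mapping to more than a single place were not used by the authors.

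**Figure D4:**
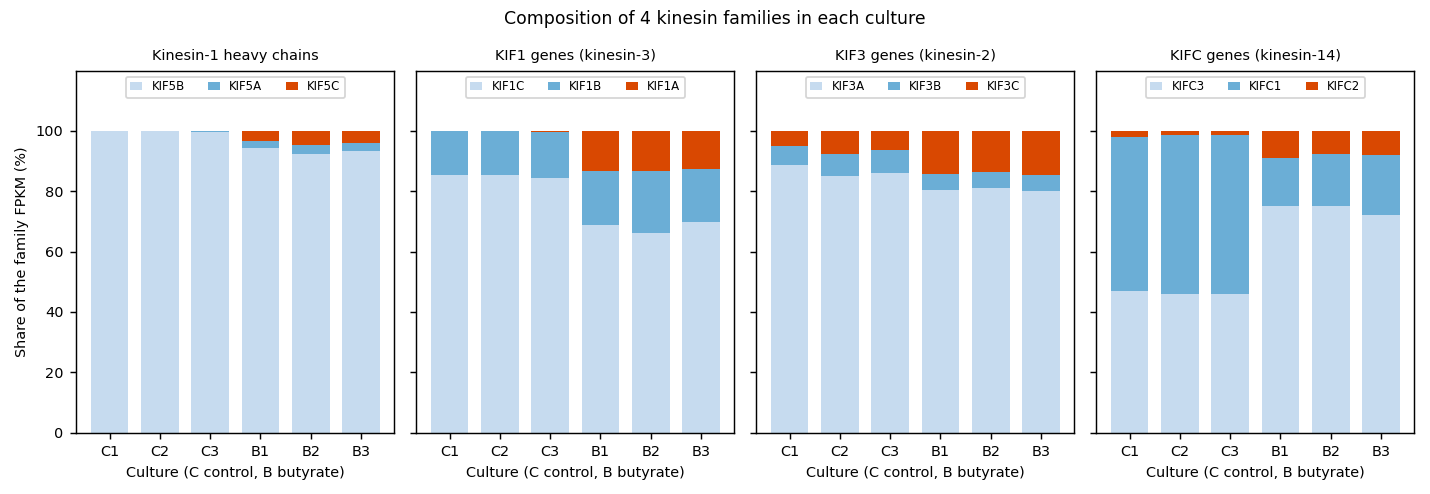
Share in percent of the summed FPKM of 4 kinesin families taken by each member, as stacked bars for the 3 control cultures (C1 to C3) and the 3 butyrate cultures (B1 to B3). KIF1A takes at most 0.261% of the KIF1 FPKM in control and at least 12.6% in butyrate cultures, and KIFC1 takes 51.1% to 53.0% of the KIFC FPKM in control and 15.9% to 19.7% in butyrate cultures.

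Cargo adaptors and kinesin light chains were examined as the cargo side of transport. Of 17 genes listed, 16 were found and tested, of which 7 rose, 1 fell and 8 did not pass, with a median change of 0.45, where 32.5% of all genes tested rose and 25.9% fell. The share that rose was thus not far from that of all genes. The mitochondrial adaptor TRAK2, among the 7, lost its call in 6 alternatives, including without control culture 3 (0.46, limma BH adjusted p = 0.0972), without butyrate culture 1 (0.68, limma BH adjusted p = 0.0671) and without butyrate culture 2 (0.46, limma BH adjusted p = 0.117). MAPK8IP1 (JIP1), the scaffold that links kinesin-1 to vesicles, had 7.13, 7.49 and 7.08 FPKM in control and 50.0, 54.0 and 49.1 in butyrate cultures. It rose by 2.80 (SE 0.07, limma BH adjusted p = 3.86e-08) and was a DEG. KLC3, a kinesin-1 light chain, had 0.517, 0.170 and 0.343 FPKM in control and 6.31, 4.90 and 4.31 in butyrate cultures, a rise of 3.63 (SE 0.32, limma BH adjusted p = 1.97e-05). KLC3 nevertheless stayed a small part of the light chains, at 5.35%, 3.85% and 3.31% of the KLC1 to KLC4 FPKM after butyrate. The widely expressed light chain KLC1 did not pass the test (0.04, limma BH adjusted p = 0.655). KIF1BP, the protein now called KIFBP that binds and inhibits several kinesin motor domains, was the only adaptor that fell, by 0.74 (SE 0.07, limma BH adjusted p = 3.49e-05).

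Cytoplasmic dynein and dynactin, the machinery for transport in the opposite direction, showed no common direction. Of 19 subunits and regulators tested, 5 rose, 3 fell and 11 did not pass, and the median change was 0.03. These shares are below the 32.5% and 25.9% of all genes tested. The intermediate chain DYNC1I1 lost its call in 5 alternatives, including without butyrate culture 1 (limma BH adjusted p = 0.0648), 2 (limma BH adjusted p = 0.0768) or 3 (limma BH adjusted p = 0.073). DYNLL1 lost its call after TPM rescaling and quantile normalization, and DCTN1 without the variance trend. The heavy chain DYNC1H1 had 10.9, 13.1 and 13.6 FPKM in control and 21.1, 20.3 and 19.6 in butyrate cultures, a rise of 0.70 (SE 0.10, limma BH adjusted p = 0.000351). Among the light chains, DYNLT3 rose by 0.96 (SE 0.07, limma BH adjusted p = 4.55e-06) and DYNLRB1 fell by 0.49 (SE 0.06, limma BH adjusted p = 0.000138).

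**Figure D5:**
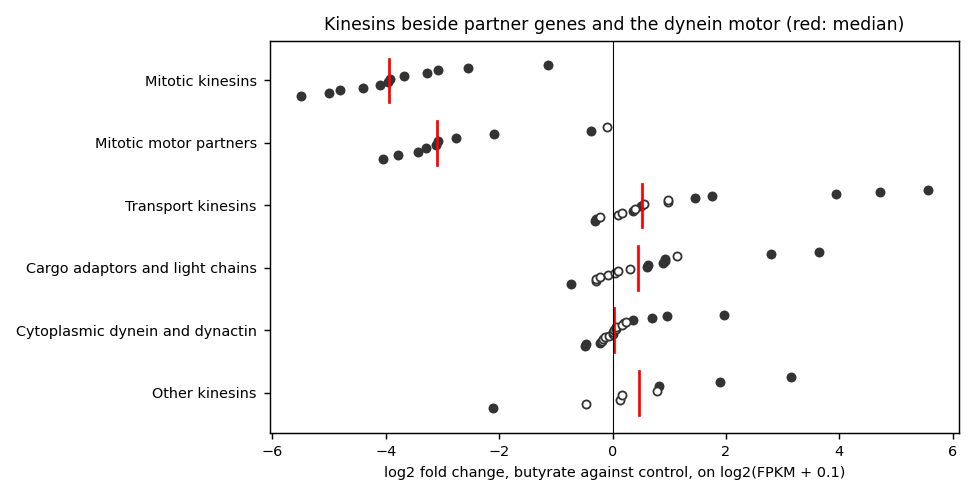
Log2 fold changes, on the log2(FPKM + 0.1) scale, of the 3 kinesin classes, mitotic motor partners, cargo adaptors and light chains, and dynein and dynactin genes, with 1 point per gene, open where it did not pass the test, and the median of each list in red. The medians of the 3 partner lists are -3.10, 0.45 and 0.03, and MAPK8IP1 and KLC3 lie highest among the adaptors.

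The 39 kinesin genes lie on 21 chromosomes, with 4 each on chromosomes 8, 16 and 19. KIF14 and KIF21B lie 0.202 Mb apart on chromosome 16, where KIF14 fell and KIF21B did not pass the test. On chromosome 26, KIF20B and KIF11 lie 2.58 Mb apart and both fell. KIF24 and KIF27 lie 1.38 Mb apart on chromosome 8, where KIF24 fell and KIF27 did not pass. Of the 25 kinesins that rose or fell, 6 overlap another listed gene, among them KIF4A, KIF1B, KIF3A and KIF5C, and the share of their reads that belongs to a neighbour is not known.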

How the data were processed

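RNA-seq of 6 REPC cultures was used, 3 after butyrate and 3 controls. The authors trimmed reads with Trim Galore 0.4.1, aligned them with STAR and ran Cufflinks, and the deposited files hold its FPKM per gene with lower and upper bounds. The submitters' processing notes name UMD3.1, and positions are printed as the files give them. Chromosomes were assigned by where most named genes of each sequence lie in a RefSeq gene table (assembly ARS-UCD2.0), from which no coordinates were taken. Rows were joined by position, and 2 rows with a failed estimate in a culture were left out.

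Groups follow the labels. FPKM are not counts, so limma 3.58.1 (R 4.3.3) with a mean-variance trend was run on log2(FPKM + 0.1) over the 15813 genes that averaged 0.1 FPKM or more, without covariates, two-sided, with BH or Bonferroni adjustment over all of them. A DEG met the thresholds of the study in limma. The authors took theirs from a Cufflinks analysis, so the DEGs here are not the study's own list. Differences between related kinesins were fitted with limma over the 16 pairs, without the trend, since the pairs are not genes of the whole table. Shares and pair differences were compared by exact permutation tests in Python 3.11.15. The gene-wise fit was also run on simulated data with independent noise, which checks the code and not how well the fit suits these data. Members, classes and gene lists were chosen with earlier results of these data known. All mitotic kinesins tested, and up to 8 rises and up to 8 falls past the BH threshold in each of the other classes, are given in full. Of the adaptor list, GRIP1 was not matched by name. Alternatives were pseudocounts of 0.01 and 1, no filter, a mean FPKM of at least 1, TPM rescaling, quantile normalization, no trend, a replicate block, a log2 fold change beyond 1 for DEGs, KIF2A as mitotic, and each culture left out. Read depth is not known from FPKM, and the deposited bounds cover the estimation error within a culture only.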

Additional observations from a re-analysis of the deposited data

How the results depend on the processing

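All 12 mitotic kinesins fell in every alternative except a mean FPKM of at least 1, where 11 were tested and fell. Counts and medians of the classes moved as follows. Lower DEGs numbered 11, 6 without the trend and 5 to 8 with a culture left out, the latter with fewer samples. They numbered 9 with a pseudocount of 0.01 or 1, 8 with no filter, and 10 after TPM rescaling or for a mean FPKM of at least 1. KIF15 was a DEG in no alternative fit except quantile normalization. KIF18A stayed a DEG only there, after TPM rescaling and for a mean FPKM of at least 1. Higher DEGs numbered 2, but 1 with a pseudocount of 0.01, with no filter, without the trend or with the replicate block, and 0 to 2 with a culture left out. The median of mitotic kinesins was -4.319 with a pseudocount of 0.01, -2.538 with 1 and -4.42 under quantile normalization. The median of transport kinesins was 0.3062 with a pseudocount of 1, 0.4028 for a mean FPKM of at least 1, 0.6612 after TPM rescaling and 0.2403 under quantile normalization. The number of transport kinesins that fell was 1 after TPM rescaling or without the trend and 1 to 2 with a culture left out. The median of other kinesins was 0.1392 with a pseudocount of 1, 0.1479 for a mean FPKM of at least 1, 0.7803 with KIF2A as mitotic and -0.007646, a turned sign, under quantile normalization. For a mean FPKM of at least 1, 0 of the other kinesins fell and 1 rose, as KIF24, KIF19 and KIF26A were then not tested, and 2 fell under quantile normalization or without the trend. With a culture left out, medians ranged from -4.058 to -3.764 (mitotic), 0.4803 to 0.5883 (transport) and 0.3046 to 0.5175 (other).

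The median of all genes was 0.23 after TPM rescaling and -0.05 under quantile normalization, and 14 kinesins rose and 14 fell under the first, 10 rose and 16 fell under the second. Where not explained by fewer samples or genes, the cause was not tested.

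Of 1282 single values, 1202 kept direction and call, 37 gained a call, 24 lost it and 19 changed sign, none of the last called as reported. After TPM rescaling these were DYNLT1 (0.06988), RAB6A (0.04926) and NUMA1 (0.02414). Under quantile normalization they were KIF13B (-0.1656), KIF27 (-0.1462), KIF12 (-0.1735), KIF3B (-0.1641), DYNLT1 (0.07727) and RAB6A (0.01249). With a culture left out, ranges crossed 0 for DCTN2 (-0.003842 to 0.0423), DCTN4 (-0.02198 to 0.06696), DCTN5 (-0.02026 to 0.03665), DYNLT1 (-0.08269 to 0.0002826), KLC1 (-0.009479 to 0.09729), KLC4 (-0.00107 to 0.1601) and PAFAH1B1 (-0.007448 to 0.1105).

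Replicate numbers are shared between groups, but same-numbered cultures did not deviate together (r = 0.0228, -0.00431 and 0.00177). The labels do not say what the number stands for. The replicate block gave 8 lower and 1 higher DEGs and changed no BH call of a single gene. Genes near 0 FPKM, such as KIF15 and KIF18B after butyrate and KIF1A, KIF5A and KIF5C in controls, are limited by wide bounds.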
